A study of Mus musculus with 5 samples.

Results

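Huntingtin, the protein mutated in Huntington's disease (HD), was followed with 6 proteins listed as its interacting proteins. The tissue was the striatum of mice that carry a mutant huntingtin transgene. The genes were chosen by name as Htt, Hap1, Hip1, Hip1r, Zdhhc17, Pacsin1 and Trip10. No cut-off on their values was used, but earlier results of these data were known. All 7 were on the array, with 9 of its 26423 probes, and Hap1 and Zdhhc17 had a pair of probes each. The named probes of the array covered 17742 genes in all.

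Striatal RNA came from 5 male FVB mice aged 12 months. All 5 carried a transgene that joins GFP to human HTT exon 1, with a tract of 84 CAG repeats, and that a human ubiquitin promoter drives. The 3 HD_miR196a mice (labelled D-Tg) came from crosses with a miR-196a line, whose precursor transgene uses the human ubiquitin promoter as well, and the 2 HD mice (labelled GHD) carried the HD transgene only. The ubiquitin promoter is active in most cell types, so neither transgene is restricted to neurons. Mice without the HD transgene were not analysed here, so no value compares HD mice with healthy mice. The labels name each sample as a separate mouse, with weak motor function noted for HD mice and improved motor function for HD_miR196a mice.

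Huntingtin is a large scaffold protein that works in vesicle transport, endocytosis and transcription. Its listed partners work with motors and at the cell membrane. Hap1 links vesicles to dynactin and kinesin, and Hip1 and Hip1r join clathrin coats to actin. Zdhhc17 attaches palmitate to huntingtin and to synaptic proteins, and Pacsin1 and Trip10 bend membranes through F-BAR domains. Medium spiny neurons of the striatum are the cells most affected in HD.

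The factor that separates the groups is miR-196a, shown here because its transgene is the only stated difference in genotype between them. RefSeq (GRCm38.p6) gives the same mature 5p arm for both mouse loci, Mir196a-1 at chr11:96265187-96265208 and Mir196a-2 at chr15:102973365-102973386, each on the plus strand. The labels do not say which precursor the transgene holds. The sequence has 22 bases, and capitals mark the seed, bases 2 to 8, through which a microRNA pairs with its targets.
mmu-miR-196a-5p: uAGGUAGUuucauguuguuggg

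Each array value is the brightness of 1 probe in 1 mouse. Deposited medians were 160.0 to 166.3 in HD_miR196a mice and 184.3 to 185.6 in HD mice. Values were therefore quantile normalized, floored at 1 and taken to the log2 scale, on which all levels are given unless called deposited, mice 1, 2 and 3 of a group in turn. The 95th percentile of 544 olfactory receptor probes, 8.31, served as the level of background, since these receptors are mostly silent in brain. Among striatal markers, Penk lay between 14.73 and 15.25 and Drd1 between 12.69 and 13.11, while the Drd2 probe was between 0 and 2.04. Cortical neuron genes, which mark the neighbouring region, had list means of 8.87 and 9.19 in mouse 1 of each group and of 10.34 to 10.81 in the other 3 mice. Mouse 1 of each group therefore stood apart in regional markers, and results are also given without these 2 mice where that changed a direction. In tissue RNA, fewer cells of a type and less RNA per cell cannot be told apart.

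None of the 9 probes differed between the groups by the test. Differences are HD_miR196a minus HD, from limma over all 26423 probes with Benjamini-Hochberg adjustment, and the smallest adjusted p of a member was 0.979. Over the array 0% of probes passed an adjusted p under 0.05, so the count of 0 of 9 matches the background. At an unadjusted p under 0.05 there were 0 members, beside 4.16% of all probes. Of the 9 differences 5 were positive and 4 negative, from -0.05 to 0.12. Their median was 0.05, and their median size without sign was 0.05, against 0.12 over all probes. For the 8 member probes above background the median size was 0.07, against 0.09 over the 10474 probes above background. The 3 and 2 mice did not overlap for 2 of the 9 probes, 22.2%, beside 20.3% of all probes, and both belong to Zdhhc17. The 95% intervals are of single probes and are not adjusted for the number of probes. Their median half-width was 0.33 on the log2 scale over the members and 0.39 over all probes. The adjusted test asks for more than this width: Acot8, at -6.90, was not called either (limma adjusted p = 0.108).

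**Figure D1:**
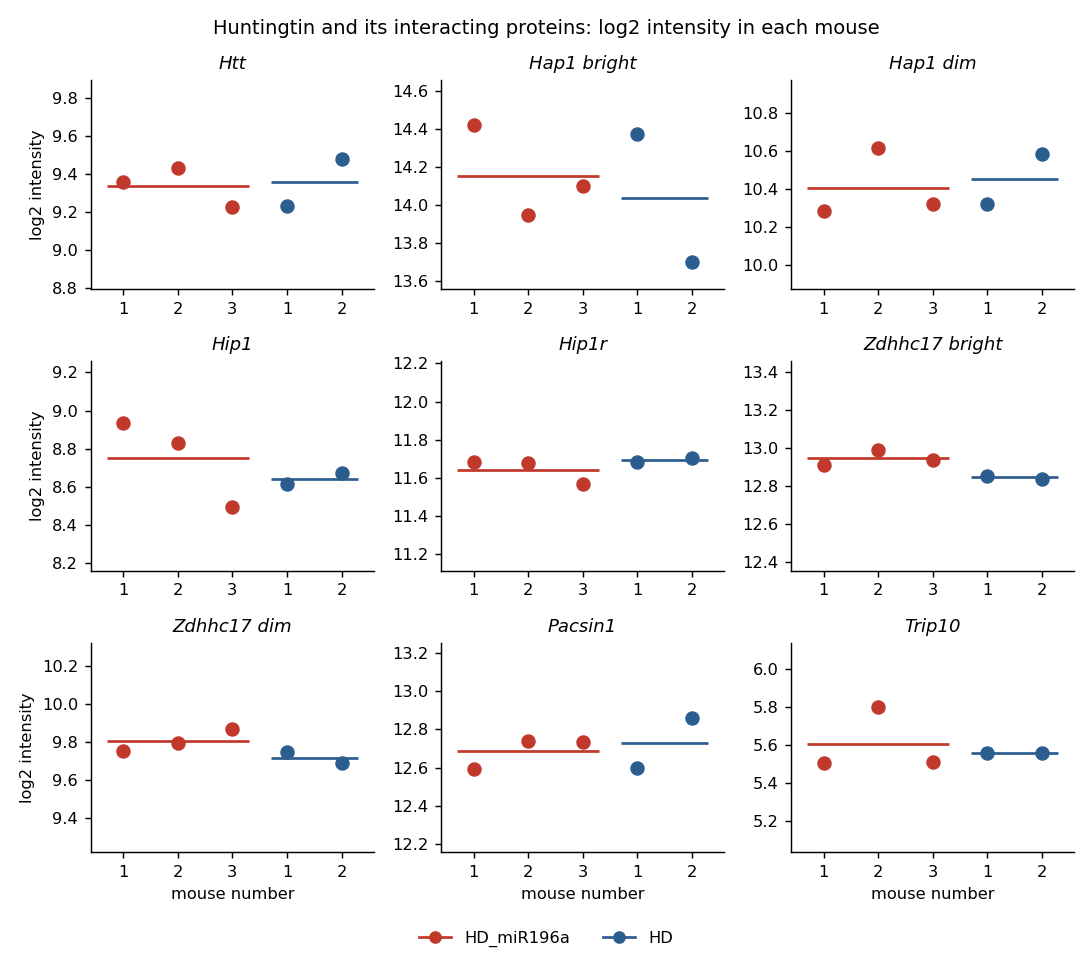
Log2 intensity of each of the 9 probes (y axis, every panel spans the same range of log2 units) in each mouse (x axis, mouse number), with HD_miR196a mice in red and HD mice in blue; points are mice and lines are group means. Hap1 bright spreads most over the mice, and the groups are apart only for the Zdhhc17 probes.

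**Figure D2:**
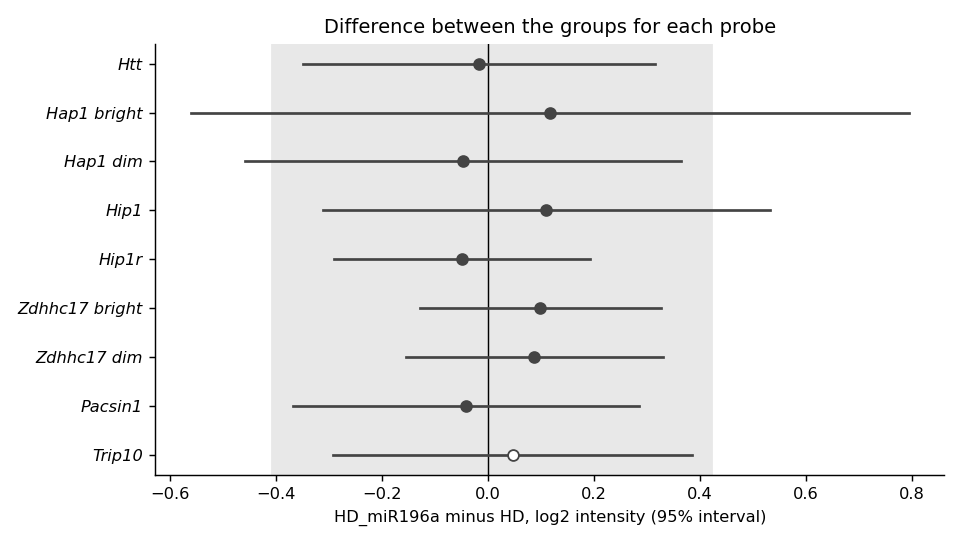
HD_miR196a minus HD on the log2 scale (x axis) for each of the 9 probes; points are differences and bars 95% intervals from limma. The grey band holds the middle 90% of all probes, the open point is Trip10 (below background), and every interval includes 0.

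Htt itself was measured by 1 probe (mMC019418), above background. Its log2 levels were 9.36, 9.43 and 9.23 in HD_miR196a mice, against 9.23 and 9.48 in HD mice. The HD mice held both a low and the highest value, so the groups overlapped fully. The difference was -0.02 ± 0.13 (SE, limma adjusted p = 1). As a fold this leaves a change of -1.19%, with a 95% interval from -21.5% to 24.4%. Where the probe lies in the transcript is not stated by the labels, so whether it also reads the human exon 1 transgene was not tested. Leaving out HD mouse 2 turned the sign, to 0.11, as did leaving out HD_miR196a mouse 3, to 0.04, and leaving out HD mouse 1 gave -0.14.

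Hap1, the huntingtin-associated protein that ties cargo to microtubule motors, varied most between mice. Its bright probe (mMC004559) measured 14.42, 13.95 and 14.10 in HD_miR196a mice, against 14.37 and 13.70 in HD mice. Mouse 1 of either group was high and the other mice were lower, so the spread ran within the groups and not between them. HD mouse 1 was 1.59-fold above HD mouse 2, while the group difference was 0.12 ± 0.26 (SE, limma adjusted p = 0.993), with a 95% interval from -0.56 to 0.79. Of the probes above background, 8.69% varied more over the 5 mice. The sign rested on single mice, with -0.22 without HD mouse 2 and 0.45 without HD mouse 1, and it was -0.01 without HD_miR196a mouse 1. Without mouse 1 of each group it was 0.33.

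The second Hap1 probe (mMC017929) did not follow the first. It measured 10.28, 10.62 and 10.32 in HD_miR196a mice and 10.32 and 10.58 in HD mice, so it was low in the mice where the bright probe was high. The gap between the probes ranged over 1.02 log2 units across the mice, whereas the gap between the Zdhhc17 probes ranged over 0.13. The group difference of this probe was -0.05 ± 0.16 (SE, adjusted p = 0.995), and it was 0.02 without HD_miR196a mouse 1 and 0.08 without HD mouse 2. Which Hap1 transcripts each probe reads was not tested. The mean of both probes differed by 0.04 between the groups.

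The means of 2 regional marker lists were ordered over the mice as the bright Hap1 probe was, or in reverse. From highest to lowest, it ran from HD_miR196a mouse 1 through HD mouse 1, HD_miR196a mouse 3 and HD_miR196a mouse 2 to HD mouse 2. The mean of 9 of 10 thalamus and pallidum genes ran in the same order, at 10.08, 9.91, 9.75, 9.19 and 8.91. The mean of 14 of 15 cortical projection neuron genes ran in the opposite one, at 8.87, 9.19, 10.34, 10.54 and 10.81. Single genes departed from the order of their list. The thalamic gene Rora was lowest in HD_miR196a mouse 1 (9.98), and the cortical gene Rasgrf2 was higher in HD mouse 1 (11.99) than in HD mouse 2 (11.61). Summed cortical intensities were 17830 to 41786 in HD_miR196a mice and 17949 to 46145 in HD mice, summed thalamic and pallidal ones 5919 to 12890 and 5252 to 10368, and no gene of either list was at 0. Pacsin1 followed the cortical order. Among probes above background, 5.09% had 1 of these 2 orders, so it was not rare. The comparison of orders was chosen after the values were seen, and the part of regional make-up in the Hap1 values was not tested.

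Ahi1, the Joubert syndrome protein that forms a complex with Hap1, had nearly the same profile as the bright Hap1 probe. It measured 14.41, 13.91 and 13.91 in HD_miR196a mice, against 14.39 and 13.67 in HD mice. Mouse 1 of each group was again high. The root mean square distance between the profiles, after each was centred on its mean over the 5 mice, was 0.07, against a median of 0.28 over 9346 named probes above background, and 42 of them lay closer to Hap1 than Ahi1. Ahi1 differed between the groups by 0.04 ± 0.29 (SE) and was singled out after its values were seen, from the list of proteins that bind Hap1.

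**Figure D3:**
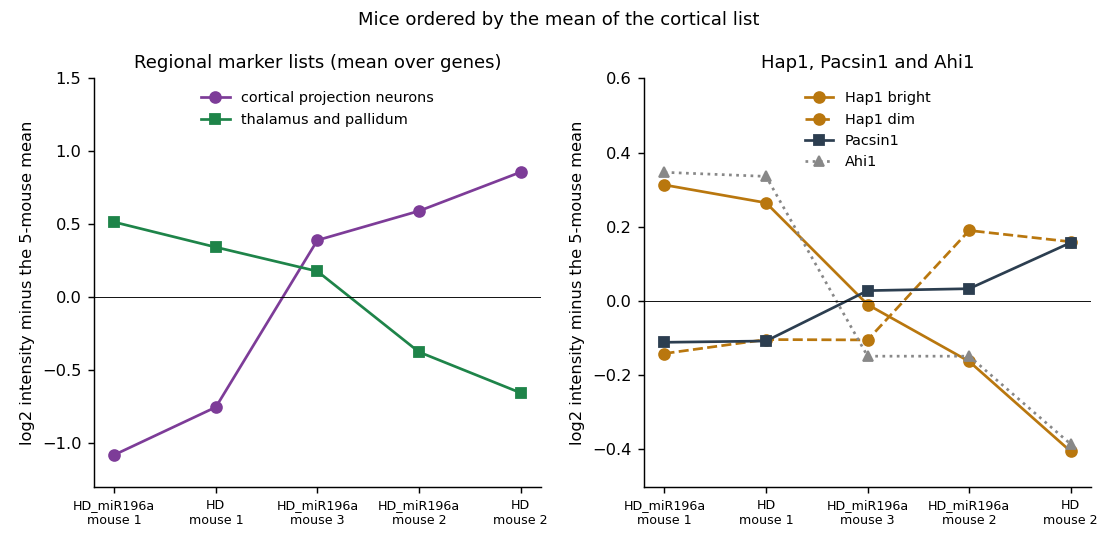
Log2 intensity minus the mean over the 5 mice (y axis), with the mice ordered by the cortical list (x axis). On the left are the means of 2 regional marker lists; on the right are the Hap1 probes (solid, bright; dashed, dim), Pacsin1 and Ahi1, where bright Hap1 and Ahi1 fall from mouse 1 of each group to HD mouse 2 and Pacsin1 rises.

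Hip1 and Hip1r, the paired adaptors between clathrin and actin, behaved differently in their spread. Hip1 (PH_mM_0007903) measured 8.94, 8.83 and 8.49 in HD_miR196a mice and 8.61 and 8.67 in HD mice. The HD_miR196a mice held both the highest and the lowest value, and the HD mice lay between them. Its difference was 0.11 ± 0.16 (SE, adjusted p = 0.982), with a 95% interval from -0.31 to 0.53. Hip1 was within the upper range of olfactory receptor probes, 97.1% of which were below it, and its value without mouse 1 of each group was -0.0081.

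Hip1r (PH_mM_0004500) was among the steadiest probes. It measured 11.68, 11.68 and 11.57 in HD_miR196a mice and 11.68 and 11.70 in HD mice, and 94.2% of probes above background varied more. Only HD_miR196a mouse 3 stood slightly low. The difference was -0.05 ± 0.09 (SE, adjusted p = 0.989), a change of -3.34% with a 95% interval from -18.3% to 14.3%. This was the only member gene whose sign was negative under every alternative run. With median centring in place of quantile normalization its groups did not overlap (11.58 to 11.65 against 11.71 to 11.75), as for 21.9% of all probes, and the difference was -0.12.

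Zdhhc17, the palmitoyl acyltransferase also called HIP14, was the only member whose groups were apart. Its bright probe (mMC013512) measured 12.91, 12.99 and 12.94 in HD_miR196a mice and 12.85 and 12.84 in HD mice. Its dim probe (PH_mM_0013804) measured 9.75, 9.79 and 9.87 against 9.75 and 9.69. All 3 HD_miR196a mice were above both HD mice on either probe, though on the dim one by less than 0.01 at the nearest pair. The differences were 0.10 ± 0.09 (SE) and 0.09 ± 0.09, with adjusted p = 0.979 for each and 95% intervals from -8.56% to 25.5% and from -10.2% to 25.7%. The probes share their gene and RNA, so they are not 2 separate checks.

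The placing of Zdhhc17 depended on the scaling between arrays. Deposited intensities of the bright probe were 6647, 7592 and 7776 in HD_miR196a mice and 8191 and 8060 in HD mice, which puts the HD mice above. Without scaling the 2 differences were -0.15 and -0.15, where all probes had a median of -0.20, so relative to all probes they were 0.05 and 0.05. With median centring they were 0.02 and 0.03, and the groups overlapped on both. With any 1 mouse left out they ranged from 0.08 to 0.12 and from 0.06 to 0.12. Markers of several cell types were higher in HD_miR196a mice beside Zdhhc17, none past the threshold. Of 14 measured of 18 medium spiny neuron genes 12 were higher (median 0.31), 7 did not overlap between the groups and 6 had an unadjusted p under 0.05. The list means of the medium spiny neuron genes were 11.18 to 11.39 against 10.81 and 11.25. These means include the Drd2 probe, below background, at 0 in HD_miR196a mouse 3 and 1.64 in HD mouse 2. Summed intensities, on which Drd2 hardly weighs, were 90719 to 97115 against 71508 and 80711 and did not overlap. Oligodendrocyte and myelin genes were higher for 11 of 12 (median 0.28, 3 without overlap, 25%). Their summed intensities were 57761 to 77353 against 62100 and 49430. Endothelial and pericyte genes were higher for 8 of 11 (median 0.10, 3 without overlap, 27.3%), with 9821 to 10739 against 9707 and 9620. Both shares without overlap were near the 20.7% of all named genes. Thalamus and pallidum genes were higher for 6 of 9 (median 0.29), and ependyma and choroid plexus genes for 5 of 8 (median 0.19). Cortical projection neuron genes were lower for 8 of 14 (0 without overlap) and astrocyte genes for 6 of 11 (3 without overlap, 27.3%). Microglia genes were lower for 5 of 9, and their share without overlap, 55.6%, was the largest of the marker lists. It held both directions, with C1qa, C1qb and Trem2 lower and Tmem119 and Aif1 higher in HD_miR196a mice. The part of cell make-up in the Zdhhc17 values was not tested.

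**Figure D4:**
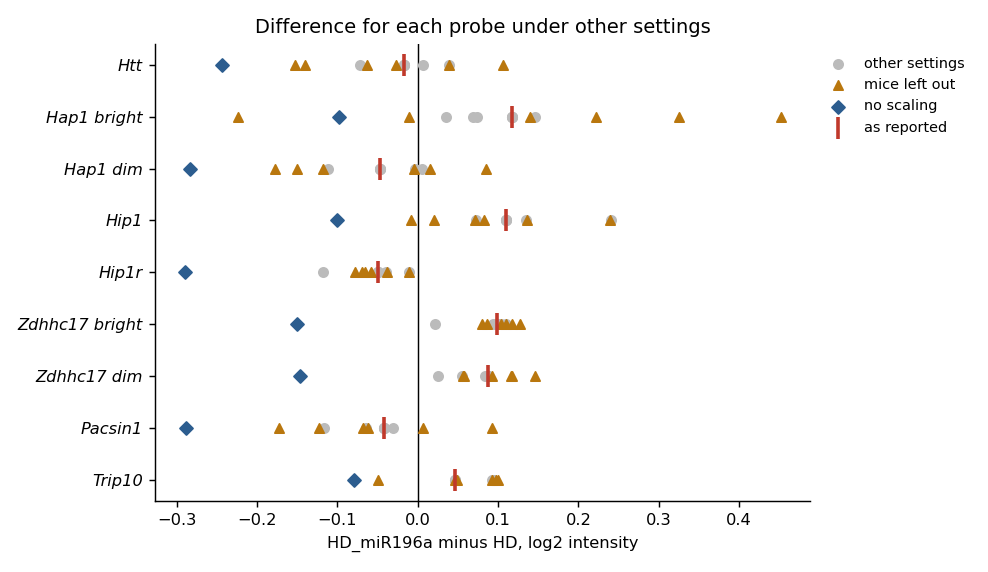
HD_miR196a minus HD on the log2 scale (x axis) for each of the 9 probes under every setting run; red bars are the reported values, triangles fits with mice left out, diamonds values without scaling and grey circles the remaining settings. Both Zdhhc17 probes stay above 0 except without scaling, and Hip1r stays below 0.

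Pacsin1 (mMR030826), a neuronal F-BAR protein of synaptic vesicle recycling that binds dynamin, measured 12.59, 12.74 and 12.73 in HD_miR196a mice and 12.60 and 12.86 in HD mice. Mouse 1 of each group was low, and HD mouse 2 was highest. The difference was -0.04 ± 0.12 (SE, adjusted p = 0.995), with a 95% interval from -22.5% to 21.8%. Between equally numbered mice the difference was -0.004 for mouse 1 and -0.12 for mouse 2. Without HD mouse 2 it was 0.09, and without HD_miR196a mouse 1 it was 0.01.

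Trip10 (PH_mM_0000729), the Cdc42-interacting F-BAR protein CIP4, was not measured above background. Its levels were 5.51, 5.80 and 5.51 in HD_miR196a mice and 5.56 and 5.56 in HD mice, and 58.8% of olfactory receptor probes were below it. Only HD_miR196a mouse 2 departed from the others. The difference was 0.05 ± 0.13 (SE, adjusted p = 0.993), it became -0.05 without that mouse, and at this signal it says little about Trip10 RNA.

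Other genes of these pathways were described from 6 lists, on the brightest probe of each gene. No gene of any list passed the threshold, nor an unadjusted p under 0.05. Over all named genes 51.0% were lower in HD_miR196a mice, with a median of -0.004, and the groups did not overlap for 20.7%. The counts that follow describe the lists and were not tested.

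Of 15 measured genes for proteins that bind huntingtin, 11 were lower and 4 higher, with a median of -0.09, or -0.06 without HD mouse 2. The 2 with the smallest p were Rasa1, a Ras GTPase activator, at 8.28 ± 0.14 (SD, n = 3) against 8.52 ± 0.19 (SD, n = 2), and the tubulin gene Tubb5 at 8.96 ± 0.14 against 9.17 ± 0.21. F8a, the gene of the 40-kDa huntingtin-associated protein HAP40, differed by -0.10 ± 0.09 (SE). Neither group of mice was apart for Rasa1 or Tubb5, and 2 of the 15 did not overlap.

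Genes for proteins that bind Hap1 had no steady direction, with 7 of 13 lower and a median of -0.03. That median was 0.12 without HD mouse 2, 0.01, 0.01 and 0.04 without HD_miR196a mouse 1, 2 or 3, 0.04 with the replicate block and 0.01 with array weights, against -0.05 without HD mouse 1. Pcm1, a centriolar satellite protein, measured 9.39, 9.20 and 9.46 in HD_miR196a mice and 9.61 in both HD mice. It was lower in every HD_miR196a mouse, by 0.26 ± 0.11 (SE) with an adjusted p of 0.979. Hgs, an endosomal sorting protein, differed by 0.16 ± 0.12. The kinesin motor gene Kif5a differed by 0.10 ± 0.09, while Kif5b and Kif5c both differed by -0.03.

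In the clathrin list, of coat, adaptor and other genes listed around Hip1 and Hip1r, 11 of 15 genes were lower and the median was -0.05. The clathrin light chain Clta measured 12.19, 12.27 and 12.26 in HD_miR196a mice and 12.39 and 12.64 in HD mice, a difference of -0.27 ± 0.12 (SE). Picalm, which sets the size of clathrin vesicles, went the other way at 12.54, 12.47 and 12.41 against 12.28 and 12.32, a difference of 0.18 ± 0.09. The groups were apart for both, with adjusted p of 0.979 each. The clathrin heavy chain Cltc differed by -0.06 ± 0.10. The list median was 0.01 without HD mouse 2, -0.01 without HD_miR196a mouse 1, -0.10 without HD mouse 1 and -0.11 with median centring, so neither its sign nor its size was steady.

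Most of the relatives of Zdhhc17 had the opposite sign to it. Of 22 other palmitoyl acyltransferase genes 16 were lower in HD_miR196a mice, 72.7%, with a median of -0.11, and 12 were above background. The median was -0.05 without HD_miR196a mouse 2 and -0.07 without mouse 1 of each group. Zdhhc6 measured 8.09, 8.03 and 8.04 against 8.22 and 8.33, apart between the groups but below background, with an adjusted p of 0.979. Zdhhc23 was below background too, at 4.01 ± 0.30 against 4.58 ± 0.45. Zdhhc13, also called HIP14L and the closest relative of Zdhhc17, measured 10.26, 10.32 and 10.08 against 10.28 and 10.42, a difference of -0.13 ± 0.12 (SE). The difference between Zdhhc17 and its relatives was not tested.

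Of 8 measured genes for proteins that Zdhhc17 palmitoylates or that were listed with them, 5 were higher and 3 lower (median 0.05). Gpm6a differed by -0.18 ± 0.11 (SE) and the cysteine-string protein gene Dnajc5 by -0.09 ± 0.09, the 2 with the smallest p. The SNARE gene Snap25 differed by 0.04 and the GABA-synthesizing enzyme gene Gad2 by -0.02. This list's median was -0.02 with median centring, -0.03 without HD mouse 1 and -0.03 with mouse 1 of both groups left out, so its sign depends on the scaling and on these mice. It was 0.01 without HD_miR196a mouse 3 and 0.01 with the replicate block.

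Among 22 genes of BAR domain proteins and membrane fission, relatives or partners of Pacsin1 and Trip10, 14 were higher and 8 lower. Their median was 0.06, or -0.17 without scaling, where all probes shift by -0.20. The median was 0.01 with median centring, 0.01 without HD mouse 1, 0.02 without HD_miR196a mouse 1 and 0.01 without mouse 1 of each group. Fcho1 differed by 0.45 ± 0.21 (SE) at a level below background, and Cdc42, the GTPase that recruits Trip10, by 0.15 ± 0.12. Pacsin2 and Pacsin3 differed by 0.07 ± 0.16 and 0.13 ± 0.13, beside -0.04 for Pacsin1, and the dynamin gene Dnm1 differed by -0.14 ± 0.16.

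**Figure D5:**
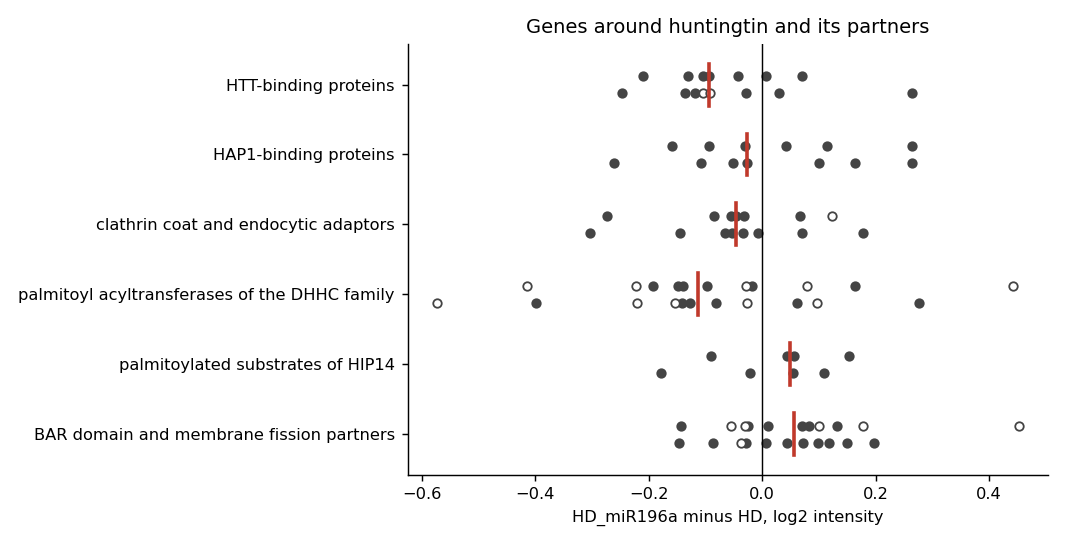
HD_miR196a minus HD on the log2 scale (x axis) for the measured genes of 6 lists (y axis); each point is the brightest probe of a gene, open points are below background and red bars are list medians. All medians lie between -0.11 and 0.06, and no gene passed the test.

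Genes whose profile over the 5 mice was most like a member's were looked for where the member was above background and varied more than the median probe, which left the bright Hap1 probe and Hip1. Hcn3 and Rgs10 lay closest to Hap1, with root mean square distances of 0.03 and 0.03 on the log2 scale. Hcn3 measured 9.01, 8.52 and 8.74 in HD_miR196a mice and 9.02 and 8.32 in HD mice, high in mouse 1 of each group. Tpcn1 and AI429214 lay closest to Hip1, both at 0.02. With 5 mice, such likeness is a description of these arrays.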

How the data were processed

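Arrays of 1 colour measured striatal RNA of 3 HD_miR196a and 2 HD mice, grouped by sample titles. The deposited values are linear intensities. Per the labels, RNA was amplified, labelled with Cy5 and run in 2 technical repeats per mouse, which the authors combined into 1 column. The sources used here do not give the scanner, the software or any scaling, and values below 0 show that background had been subtracted.

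Intensities were quantile normalized, floored at 1 and log2 transformed, and the groups were then fitted by limma (version 3.58.1, R 4.3.3; lmFit, then eBayes with 1.75 prior beside 3 residual degrees of freedom, two-sided, adjusted over all 26423 probes). The fit was tested on simulated data. The platform annotation names a single gene for 20377 probes, several for none and no gene for 6046. With RefSeq names (GRCm38.p6), 18213 symbols matched directly, 2126 by synonym and 38 not. Every member probe is described. In each pathway list the 2 genes with the smallest p were named, and the 2 nearest genes were named for members above background that varied more than the median probe. Other genes were chosen after their values were seen. Members and lists were chosen with earlier results of these data known. Precision is limited by the number of arrays. The p-values set each group difference against the spread between these mice, which eBayes draws towards that of all probes. An exact permutation test of 3 against 2 mice cannot give a p below 0.1. Alternatives were median centring, no scaling, 2 filters on dim probes, a higher floor, eBayes with trend and robust settings, array weights, a replicate block, mice left out and gene means.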

Additional observations from a re-analysis of the deposited data

How the results depend on the processing

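Of 127 member values under alternatives, 0 passed the threshold, 109 kept their sign and 18 changed it. An unadjusted limma p under 0.05 was reached by the bright Zdhhc17 probe with the higher floor (0.033) and by Hip1r without scaling (0.035). Without scaling the groups did not overlap for Htt, Pacsin1, Hip1r and the bright Zdhhc17 probe, all lower in HD_miR196a mice, as for 39.8% of all probes. No member was called in the main fit or under any alternative, and why values changed sign was not tested. The filter above the median of mean level removed Trip10. Otherwise both filters on dim probes, the higher floor and the trend and robust settings left each member's difference as it was. These unchanged values are among the 109 and say nothing about how steady a sign is. Without scaling the bright Hap1 probe was -0.10, Hip1 -0.10, Trip10 -0.080 and the Zdhhc17 probes -0.15 and -0.15, where all probes shifted by -0.20. With array weights the dim Hap1 probe was 0.0051 and Htt 0.0068. Without mouse 1 of each group, chosen after seeing the data, Hip1 was -0.0081. With 1 mouse left out the ranges were -0.22 to 0.45 (bright Hap1), -0.18 to 0.084 (dim Hap1), -0.14 to 0.11 (Htt), -0.17 to 0.092 (Pacsin1) and -0.050 to 0.10 (Trip10). A fit that leaves out an HD mouse assumes that the lone HD mouse varies like the other group.

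The 0 probes called over the array (1099 at an unadjusted p under 0.05) became 1 above the lower quartile of level (Acot8), 4 with values floored at the median olfactory receptor probe (Acot8, Tmeff1 and 2 unnamed probes), 3 with trend and robust settings (Acot8, Serpina9 and Lats2) and 0 to 3 with 1 mouse left out (3 without either HD mouse). None was a member or a gene of the pathway lists. These genes were chosen after their values were seen.

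Equal mouse numbers are not stated to pair the mice, and only 2 numbers are shared. Deviations from group means, across probes, correlated by 0.24 for mice 1 and 0.17 for mice 2. The deviations of the 2 HD mice are equal and opposite, so these are not 2 separate observations. With the replicate block 0 members were called, Htt was 0.039, Hip1 0.24 and the Zdhhc17 probes 0.10 and 0.06. Low signal limits Trip10.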
